A study of Mus musculus with 20 samples.

Results

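The genes described here build and feed the DNA replication fork. They are 38 mouse genes in 8 roles: the MCM helicase, origin licensing, helicase activation, the polymerases and primase, the sliding clamp with its loader, single-strand binding, the joining of Okazaki fragments, and the supply of deoxynucleotides. A gene was included where a probe set of the array carried its symbol and no other symbol. This held for 37 of the 38 genes, against 19505 genes with such a probe set on the whole array. Mcm7 had no such probe set. No gene of the 37 had more than 1 probe set.

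RNA was measured on 20 Clariom S arrays, 2 in each of 10 groups. The 4 cultured groups held cells grown from marrow progenitors of 2 female wild-type C57BL/6 mice in medium with erythropoietin, insulin and transferrin. Cells collected at a point named D1 or D2 had grown either without interleukin 6 (D1-Control, D2-Control) or with 100 ng/mL of mouse interleukin 6 (IL-6) from the start of culture (D1-IL6, D2-IL6). The labels do not say how many days D1 and D2 stand for. The other 6 groups held erythroblasts of C57BL/6 mice aged 1 year at 3 steps of maturation: proerythroblasts are stage I, a pool of basophilic with polychromatic cells is II+III, and orthochromatic cells are IV. They came from 2 double wild-type mice (DWT), 1 male and 1 female, and from 2 female mice lacking both the formin mDia1 and the microRNA miR-146a (DKO). How the stages were separated is not given in the labels. Replicate 1 of each DWT group is the male and replicate 2 the female, so genotype and sex are partly confounded. Which DKO array of one stage shares a mouse with which of another is not stated. Where arrays share a mouse or a culture, p-values measure only the spread between these arrays.

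DNA replication starts where the origin recognition complex, with Cdc6 and Cdt1, loads the MCM ring onto chromatin before S phase. Cdc45 and the GINS complex turn the ring into an active helicase, and the polymerases then copy both strands with the help of the PCNA clamp. Erythroblasts divide several times while they fill with haemoglobin, and the cell cycle ends as the nucleus condenses. Many genes of this set are known targets of the E2F transcription factors.

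Levels are log2 signals as deposited, so that a difference of 1 stands for a factor of 2 in signal. Signals of different probe sets are not comparable with one another, and only differences between arrays are read for a gene. In all, 15 values of the 37 genes exceed 16, above what a 16-bit scan gives directly. The sources used here do not state the step behind this. A signal was near background where it lay under the 95th percentile of the array's 23 background probe sets, at 7.25 to 7.74. Of the 37 genes, 27 lay above background in every array, and between 34 and 37 did so in each array other than DKO-I replicate 2. That array held 28 above background. It also stood apart over all named probe sets, with a highest correlation with any other array of 0.909, against 0.970 to 0.994 for the other 19 arrays.

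Diaph1, the gene of mDia1, read 9.29 to 11.49 in the 6 DWT arrays and 6.87 to 7.59 in the 6 DKO arrays, in the direction of the genotype labels. Red cell markers were checked against the stage labels. Their mean over 13 genes was 14.84 to 15.39 in culture, 12.94 to 13.10 in DWT-I, 14.24 to 15.06 in DWT-II+III and 15.83 to 15.99 in DWT-IV. In DKO-I it was 8.99 and 9.45, and only 8 and 10 of the 13 markers lay above background there. Klf1, a transcription factor of red cell genes, read 11.87 and 11.52 in DWT-I and 7.98 and 8.76 in DKO-I. The mean of 11 neutrophil markers was 16.16 and 16.37 in DWT-I and 16.95 and 15.38 in DKO-I. The label of proerythroblasts therefore goes with strong neutrophil RNA in both stage I groups and with weak red cell RNA in DKO-I.

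Promoter sequences of a few members are printed because the genes changed together in culture. RefSeq windows of build GRCm38.p6, running from 250 bases before to 50 after each start site, were at hand for 31 of the 38 genes. The windows were searched on both strands for the E2F words TTTCCCGC, TTTGGCGC, TTTCGCGC and TTTGCCGC, which can overlap one another. Of the 31 genes, 13 (41.9%) had at least 1 word. Counted by window, 36.1% of the 36 member windows had a word, against 2.26% of all 32851 windows in the table. The promoter of Mcm6, a helicase subunit, was the only one with 3 words. Orc1 and Cdc6 are the licensing genes with the highest rise between stages I and IV in DWT, and Pold1 fell most in culture. Rrm2, the regulated subunit of ribonucleotide reductase, has none of the words and is shown for contrast. Each sequence runs 5′ to 3′ on the gene's strand, and capitals mark E2F words.
Mcm6 (chr1:128359656-128359955, minus strand): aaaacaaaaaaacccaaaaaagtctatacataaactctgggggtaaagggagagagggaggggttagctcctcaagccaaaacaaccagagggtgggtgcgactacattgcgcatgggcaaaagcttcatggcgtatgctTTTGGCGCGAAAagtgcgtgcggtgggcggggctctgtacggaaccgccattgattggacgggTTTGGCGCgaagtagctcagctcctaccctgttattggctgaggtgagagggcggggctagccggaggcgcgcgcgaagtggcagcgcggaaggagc
Orc1 (chr4:108579204-108579503, plus strand): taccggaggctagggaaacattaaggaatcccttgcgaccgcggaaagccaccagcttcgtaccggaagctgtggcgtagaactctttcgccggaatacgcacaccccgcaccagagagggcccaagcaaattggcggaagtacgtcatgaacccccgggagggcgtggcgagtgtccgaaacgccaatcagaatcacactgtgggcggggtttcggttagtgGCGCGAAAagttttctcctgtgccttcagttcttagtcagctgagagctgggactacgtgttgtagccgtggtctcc
Cdc6 (chr11:98907901-98908200, plus strand): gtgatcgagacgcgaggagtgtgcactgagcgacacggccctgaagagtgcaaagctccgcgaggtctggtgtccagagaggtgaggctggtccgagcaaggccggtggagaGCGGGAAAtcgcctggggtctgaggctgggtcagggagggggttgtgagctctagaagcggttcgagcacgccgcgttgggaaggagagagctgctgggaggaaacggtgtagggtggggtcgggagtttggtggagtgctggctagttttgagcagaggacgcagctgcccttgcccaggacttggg
Pold1 (chr7:44548766-44549065, minus strand): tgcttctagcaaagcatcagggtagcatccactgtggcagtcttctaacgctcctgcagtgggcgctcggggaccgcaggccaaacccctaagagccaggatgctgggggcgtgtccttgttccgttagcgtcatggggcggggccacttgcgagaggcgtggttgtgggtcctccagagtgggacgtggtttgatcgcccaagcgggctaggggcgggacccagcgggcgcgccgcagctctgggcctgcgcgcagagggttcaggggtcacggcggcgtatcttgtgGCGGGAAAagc
Rrm2 (chr12:24708004-24708303, plus strand): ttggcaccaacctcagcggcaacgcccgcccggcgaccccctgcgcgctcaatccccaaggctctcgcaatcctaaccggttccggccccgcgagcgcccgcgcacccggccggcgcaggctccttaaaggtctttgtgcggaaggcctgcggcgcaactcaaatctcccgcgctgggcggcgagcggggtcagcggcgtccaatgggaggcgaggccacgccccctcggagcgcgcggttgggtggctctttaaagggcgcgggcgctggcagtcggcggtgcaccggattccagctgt

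In Mcm6, 2 of the words overlap, beginning at positions -110 and -106 relative to the start, and the other begins at -47. The word of Orc1 begins at -27, that of Cdc6 at -138 and that of Pold1 at 39. The letters CCAAT, on either strand, were found in 64.5% of the 31 genes. By window this was 58.3%, against 37.4% of all windows. The erythroid GATA words AGATAA and TGATAA were in 8.33% of the member windows against 18.6% of all windows. These are matches of letters and not shown sites of binding.

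The 37 genes were highest in D1 cultures and, among isolated cells, at stage IV. Averaged over the genes, the level was 13.42 in D1-Control, 13.31 in D1-IL6, 11.02 in D2-Control and 10.86 in D2-IL6. It was 11.64, 11.98 and 12.94 at DWT stages I, II+III and IV and 10.15, 11.42 and 12.79 at the same DKO stages. Of the 37 genes, 21 had their highest group mean in D1-Control and 9 in D1-IL6, while DWT-IV held 5 and DKO-IV 2. The lowest group was DKO-I for 24, D2-IL6 for 8, D2-Control for 4 and DKO-II+III for 1. The median SD of a gene between the 2 arrays of a group was 0.07 to 0.33 in 9 groups and 1.04 in DKO-I.

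**Figure D1:**
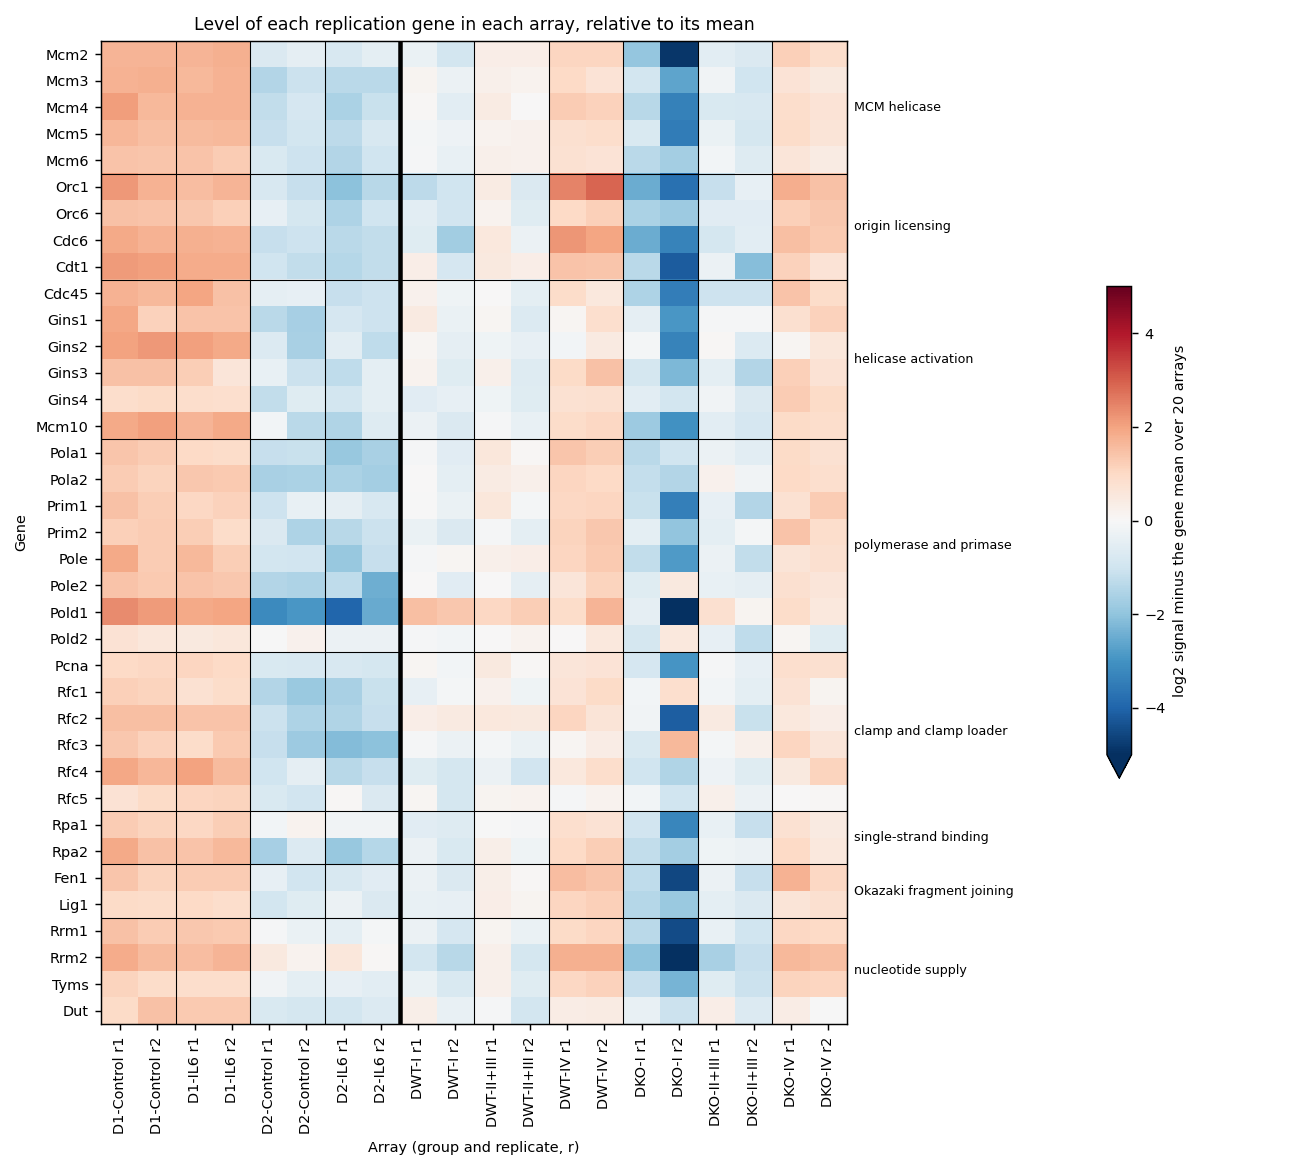
Log2 signal of 37 replication genes (rows, grouped by role) in 20 arrays (columns), each value minus the gene's own mean over the 20 arrays; red is above and blue below that mean, and values under -5 share the darkest blue. The D1 and stage IV columns are red for nearly all genes, the D2 columns mostly blue, and the second DKO-I array has the darkest cells.

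The first comparison in culture asked how the genes changed between D1 and D2. Without IL-6, 36 of 37 genes fell and none rose. The median difference was -2.49, against 0.17 over all 19572 named probe sets. Of all probe sets 23.5% were called lower, by limma at an adjusted p under 0.05. With IL-6 all 37 fell, with a median of -2.59 against 0.09 over all probe sets, of which 20.2% were called lower. The D1 and D2 arrays did not overlap for any of the 37 genes in either comparison, where 32.4% and 31.7% of all probe sets were lower without overlap. The 2 sets of differences had a Pearson r of 0.93 and a Spearman rho of 0.87 across the 37 genes (r 0.89 without Pold1), as a description over genes measured on the same arrays. In bulk RNA, fewer cells of a type and less RNA per cell cannot be told apart.

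Among the subunits of the MCM helicase, the ring that unwinds the parental strands, all 5 measured genes fell. Mcm2 read 15.98 and 16.00 in D1-Control, 15.99 and 16.07 in D1-IL6, 13.58 and 13.86 in D2-Control and 13.48 and 13.80 in D2-IL6. Mcm5 read 15.76 and 15.62 in D1-Control, 15.70 and 15.74 in D1-IL6, 12.96 and 13.20 in D2-Control and 12.82 and 13.32 in D2-IL6. All 4 D1 arrays lay above all 4 D2 arrays for both genes. Mcm2 fell by 2.27 ± 0.14 (SE of the log2 difference, n = 2 per group as everywhere below; limma adjusted p = 5.5e-07) without IL-6 and the difference with it was -2.39 ± 0.14 (adjusted p = 4.8e-07). The other helicase genes had differences as low as -3.03 (Mcm3) without IL-6 and -3.10 (Mcm4) with it.

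The licensing genes fell somewhat more, with role medians of -2.91 and -3.12. Cdc6, the ATPase that helps to load the helicase, read 13.86 and 13.71 in D1-Control, 13.77 and 13.73 in D1-IL6, 10.84 and 10.95 in D2-Control and 10.63 and 10.76 in D2-IL6. Cdt1, its partner in loading, read 13.72 and 13.61 in D1-Control, 13.41 and 13.44 in D1-IL6, 10.57 and 10.35 in D2-Control and 10.14 and 10.34 in D2-IL6. The D1 values of both lie in a narrow band well above the D2 values. Cdt1 fell by 3.20 ± 0.19 (adjusted p = 5.6e-07) without IL-6 and the difference with it was -3.18 ± 0.19 (adjusted p = 7.5e-07), and Cdc6 differed by -2.89 ± 0.18 and -3.06 ± 0.18. Orc6, a small subunit of the origin recognition complex, read 14.44 and 14.38 in D1-Control, 14.32 and 14.14 in D1-IL6, 12.55 and 12.09 in D2-Control and 11.42 and 11.98 in D2-IL6. Its difference of -2.09 ± 0.22 without IL-6 was the smallest of the role. Orc1, the complex's ATPase subunit, fell by 3.34 ± 0.28 with IL-6 (adjusted p = 7.7e-06), among the 3 lowest differences there.

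All 6 genes of helicase activation fell in both cultures. Cdc45, the cofactor that travels with the MCM ring, read 11.72 and 11.61 in D1-Control, 11.94 and 11.43 in D1-IL6, 9.51 and 9.57 in D2-Control and 8.84 and 8.93 in D2-IL6. Mcm10, a scaffold protein that acts as origins fire, read 13.06 and 13.22 in D1-Control, 12.87 and 13.07 in D1-IL6, 11.04 and 9.83 in D2-Control and 9.66 and 10.53 in D2-IL6. The 2 D2-Control arrays of Mcm10 differ by more than 1, a wide gap beside the D1 arrays. Gins2, a subunit of the GINS complex, was among the 3 lowest differences without IL-6, at -3.23 ± 0.34 (adjusted p = 2.8e-05).

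The polymerase and primase genes held both the highest and the lowest difference. Pold1, the catalytic subunit of polymerase delta, read 13.12 and 12.88 in D1-Control, 12.65 and 12.70 in D1-IL6, 7.54 and 7.82 in D2-Control and 6.78 and 8.22 in D2-IL6. It fell by 5.32 ± 0.40 (adjusted p = 2.4e-06) without IL-6 and differed by -5.17 ± 0.40 (adjusted p = 4.0e-06) with it, and 1 D2-IL6 array lay below the background level. Pold2, the accessory subunit of the same enzyme, read 11.24 and 11.07 in D1-Control, 10.99 and 11.07 in D1-IL6, 10.48 and 10.72 in D2-Control and 10.22 and 10.22 in D2-IL6. Its difference of -0.56 ± 0.23 without IL-6 was not called (adjusted p = 0.07), and with IL-6 it fell by 0.81 ± 0.23 (adjusted p = 0.018). With quantile normalization the difference without IL-6 was 0.03, and the fall with IL-6 also missed the threshold without either D1-IL6 array. Pola1, the catalytic subunit of the polymerase that starts each new strand, read 14.98 and 14.86 in D1-Control, 14.59 and 14.51 in D1-IL6, 12.41 and 12.45 in D2-Control and 11.67 and 11.94 in D2-IL6. Its D2-IL6 values lay below its D2-Control values, both far below D1. Pole2, the second subunit of polymerase epsilon, fell by 3.25 ± 0.33 with IL-6 (adjusted p = 2.9e-05), also among the 3 lowest there.

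Pcna, the sliding clamp that holds the polymerases on DNA, read 17.23 and 17.24 in D1-Control, 17.30 and 17.20 in D1-IL6, 15.46 and 15.41 in D2-Control and 15.43 and 15.33 in D2-IL6. Its arrays agreed closely within each group, and the difference of -1.80 ± 0.07 without IL-6 had the lowest adjusted p of the set (5.2e-08). Rfc1, the large subunit of the clamp loader, read 13.49 and 13.43 in D1-Control, 13.08 and 13.23 in D1-IL6, 10.85 and 10.46 in D2-Control and 10.71 and 11.22 in D2-IL6. The clamp loader genes fell, with differences from -2.82 (Rfc2) to -1.71 (Rfc5) without IL-6. Rfc3 was near background in D2, so its difference there is -1.64 or lower without IL-6 and -1.33 or lower with it.

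Rpa1, the large subunit of the protein that coats single strands, read 14.47 and 14.32 in D1-Control, 14.24 and 14.45 in D1-IL6, 13.05 and 13.36 in D2-Control and 13.02 and 13.04 in D2-IL6. Its difference of -1.19 ± 0.16 (adjusted p = 1.3e-04) without IL-6 was one of the 3 smallest, and that with IL-6 was -1.31 ± 0.16 (adjusted p = 8.3e-05). Its partner Rpa2 differed by -2.86 ± 0.32 and -3.18 ± 0.32. Lig1, the ligase that seals Okazaki fragments, read 11.70 and 11.67 in D1-Control, 11.74 and 11.62 in D1-IL6, 9.83 and 10.16 in D2-Control and 10.48 and 10.05 in D2-IL6. Lig1 and the flap nuclease Fen1 fell, with differences of -1.69 and -1.95 without IL-6.

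The nucleotide supply genes had the smallest role medians, -1.47 and -1.48. Rrm1, the large subunit of ribonucleotide reductase, read 15.48 and 15.28 in D1-Control, 15.34 and 15.30 in D1-IL6, 13.94 and 13.66 in D2-Control and 13.49 and 13.90 in D2-IL6. Rrm2, its regulated small subunit, read 15.13 and 14.87 in D1-Control, 14.82 and 15.00 in D1-IL6, 13.79 and 13.47 in D2-Control and 13.85 and 13.35 in D2-IL6. Tyms, which makes thymidylate, read 15.06 and 14.88 in D1-Control, 14.81 and 14.81 in D1-IL6, 13.78 and 13.46 in D2-Control and 13.54 and 13.40 in D2-IL6. For each of these genes all D2 values lie below all D1 values. Tyms fell by 1.35 ± 0.14 (adjusted p = 2.8e-05) without IL-6, and Rrm2 fell by 1.31 ± 0.19 (adjusted p = 3.1e-04) with it. Dut, which removes dUTP from the pool, read 8.37 and 8.88 in D1-Control, 8.71 and 8.71 in D1-IL6, 6.64 and 6.51 in D2-Control and 6.48 and 6.71 in D2-IL6. Dut was near background in both D2 groups, so its difference is -1.14 or lower without IL-6 and -1.05 or lower with it.

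**Figure D2:**
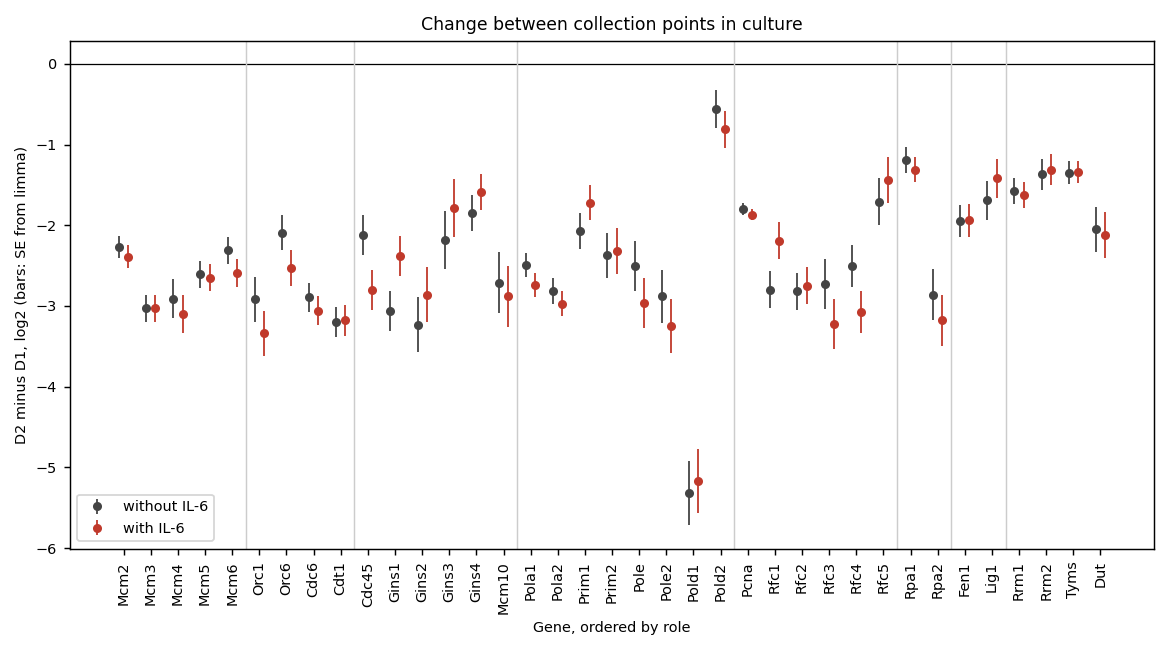
Log2 difference between D2 and D1 for each of the 37 genes, ordered by role, without IL-6 (grey) and with IL-6 (red); points are limma estimates, bars their SE, and grey lines part the roles. Every point lies below 0, from -5.32 for Pold1 to -0.56 for Pold2, and grey and red points lie close together.

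Genes of the same pathways outside the set were read from lists chosen with earlier results of these data known. Of 34 other replication factors measured, 32 were called lower and 1 higher without IL-6 (median -2.10), and 33 and 1 with it. Rpa3, the small single-strand binding subunit, fell by 3.31 ± 0.21 (adjusted p = 8.6e-07), while Pold4, the smallest subunit of polymerase delta, rose by 1.18 ± 0.27 (adjusted p = 0.0052). Of 23 other nucleotide supply genes, 17 were called lower and none higher (median -1.99). Nme1, a nucleoside diphosphate kinase, fell by 3.22 ± 0.13 (adjusted p = 4.6e-08). The salvage kinases Tk1 and Dck, at -0.16 and -0.29, were not called.

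Of 21 E2F and S phase regulators, 14 were called lower and 4 higher without IL-6. Ccne1, the cyclin that drives entry into S phase, fell by 3.05 ± 0.12 (adjusted p = 4.2e-08) and E2f1 fell. Both D2-Control arrays of E2f1 were near background, so its difference is -1.67 or lower. The 4 called higher were the cell cycle inhibitors Cdkn1b (5.03), Cdkn1a (3.13) and Cdkn2c (0.74) and the factor E2f2 (1.08). Over all probe sets 19.7% were called higher without IL-6 and 13.0% with it, so 4 of 21 is close to the background share. Of 20 G2 and mitosis genes, 12 were called lower, with a median of -0.96, less far than the replication genes' median of -2.49. Plk1, the mitotic kinase, fell by 1.49 ± 0.13 (adjusted p = 8.5e-06).

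Markers of other cell types moved over the same interval. The mean of 7 stem and progenitor markers was 9.43 and 9.50 in D1-Control, with 5 above background, and 7.19 and 7.29 in D2-Control, with 1 and 2 above background. Of the 7, 5 were called lower and 2 higher. The neutrophil mean went from 7.06 and 7.76 to 5.78 and 5.79. The red cell mean was 14.97 and 15.01 in D1-Control and 15.37 and 15.39 in D2-Control, with all 13 above background. Of the 13, 5 were called higher and 2 lower. The mean of 11 monocyte and macrophage markers went from 9.20 and 9.48 to 7.35 and 7.21, with 6 called lower and 1 higher. Of 9 granulocyte progenitor markers 5 were called lower, and of 9 ribosomal protein genes 7. With IL-6 the monocyte mean was 9.42 and 9.71 at D1 and 10.04 and 9.82 at D2, with 3 called higher and 1 lower. The stem and progenitor mean there went from 9.37 and 9.19 to 7.17 and 7.21, the neutrophil mean from 7.87 and 8.33 to 8.01 and 7.79 and the red cell mean from 14.92 and 14.84 to 15.17 and 15.25. With IL-6, 4 stem and progenitor markers were called lower and 1 higher, and 7 red cell markers were called higher and 3 lower. The part of these shifts in the fall of the replication genes was not tested.

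Of 31 members with a promoter window, 30 were measured. The 12 with an E2F word had a median D2 minus D1 difference of -2.80 without IL-6 (range -5.32 to -1.69), and the 18 without had -2.06 (range -2.86 to -0.56). These medians are a description and were not compared by a test. Between stages IV and I of DWT the corresponding medians were 1.28 and 1.42.

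The comparison with and without IL-6 at each collection point found no called difference in the 37 genes. At D1 the median difference was -0.09 and 1 gene had an unadjusted p under 0.05, as did 554 of all 19572 probe sets. By adjusted p, limma called 0.0511% of all probe sets in either direction. The lowest values were -0.55 for Gins3, -0.37 for Pola1 and -0.33 for Orc1, and the highest 0.24 for Rfc5, 0.13 for Pola2 and 0.09 for Dut. At D2 the median was -0.15 and 5 genes had an unadjusted p under 0.05, as did 2808 of all 19572 probe sets. By adjusted p, 3.31% of all probe sets were called and no member was. Pola1 came closest, at -0.63 ± 0.15 (adjusted p = 0.056). It passed when low signals were filtered out. Orc1 (-0.75) and Cdc45 (-0.66) were lower still, and Gins1 (0.57), Rfc5 (0.51) and Rfc1 (0.31) were the highest. The test of whether the IL-6 difference changed between D1 and D2 called no member, with 1.19% of all probe sets called. It gave no member an unadjusted p under 0.05, against 1567 of all 19572 probe sets. Its extremes were -0.68 for Cdc45, -0.56 for Rfc4 and -0.49 for Rfc3, and 0.67 for Gins1, 0.61 for Rfc1 and 0.40 for Gins3. Of the other pathway lists, only the nucleotide genes had a call at D2, where Samhd1, a dNTP hydrolase, rose by 1.15 ± 0.23 (adjusted p = 0.021). At the same point 6 of 11 monocyte and macrophage markers, 4 of 9 granulocyte progenitor markers and 4 of 11 neutrophil markers were called higher with IL-6. Their part in the values of the replication genes was not tested.

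The neutrophil mean fell from 16.16 and 16.37 in DWT-I to 7.70 and 10.06 in DWT-IV. Its part in the stage differences below was not tested. In isolated wild-type cells labelled as erythroblasts the 37 genes lay higher at later stages. From DWT-I to DWT-II+III the median difference was 0.37, against 0.02 over all probe sets. In all, 30 of 37 genes lay above 0, as did 52.2% of all probe sets. None was called, while 0.245% of all probe sets were. An unadjusted p under 0.05 was found for 1 gene and for 1457 probe sets. The highest were Cdc6 (1.29), Orc1 (0.98) and Mcm2 (0.95), and the lowest Dut (-0.43, near background), Gins1 (-0.34) and Pold1 (-0.29). Without DWT-I replicate 2 the median was 0.17, and without DWT-II+III replicate 1 it was 0.24. From DWT-II+III to DWT-IV the median was 0.90 against 0.12, with 36 genes and 59.2% of all probe sets above 0. Only Orc1 was called higher, by 2.87 ± 0.55 (adjusted p = 0.02), where 1.59% of all probe sets were called higher. This call was lost without any one of DWT-IV replicate 1, DWT-IV replicate 2 and DWT-II+III replicate 2. Rrm2 (2.08) and Cdc6 (1.97) came next, and Rfc5 (-0.08), Pold2 (0.17) and Pold1 (0.17) were the lowest.

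The whole span from stage I to stage IV was added after the stage steps had been seen. In DWT, 12 of 37 genes rose from stage I to stage IV and none fell, where 8.17% of all probe sets were called higher. The median was 1.27 against 0.17 over all probe sets. In the male mouse 33 genes were higher at stage IV and 4 lower, with a median of 1.11. In the female all 37 were higher, with a median of 1.51. Over all probe sets 58.9% were higher in the male and 57.5% in the female, with medians of 0.173 and 0.116. The 12 were Orc1, Orc6, Cdc6, Gins4, Mcm10, Pola1, Pola2, Prim2, Rfc4, Rpa2, Lig1 and Tyms. With the mouse as a block, Gins4 (adjusted p = 0.063), Mcm10 (0.072), Prim2 (0.056) and Rfc4 (0.062) no longer passed. Leaving out any 1 of the 4 arrays left 2 to 4 genes, and only Orc1 and Cdc6 passed every time.

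Orc1 read 9.37 and 9.71 in DWT-I, 11.09 and 9.96 in DWT-II+III and 13.19 and 13.59 in DWT-IV. Cdc6 read 11.39 and 10.23 in DWT-I, 12.52 and 11.69 in DWT-II+III and 14.18 and 13.96 in DWT-IV. Orc6 read 12.42 and 12.02 in DWT-I, 13.14 and 12.36 in DWT-II+III and 13.95 and 14.16 in DWT-IV. For these 3 licensing genes both stage IV arrays lie far above both stage I arrays. Orc1 rose by 3.85 ± 0.55 (adjusted p = 0.0013) between stages I and IV, Cdc6 by 3.26 ± 0.51 (adjusted p = 0.002) and Orc6 by 1.84 ± 0.38 (adjusted p = 0.0081). Licensing had the highest role median, 2.55. Cdt1 read 11.89 and 10.73 in DWT-I, 12.05 and 11.92 in DWT-II+III and 12.98 and 12.97 in DWT-IV and, at 1.66 ± 0.86, was not called.

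The MCM genes had a role median of 1.01 and none was called. Mcm2 read 13.97 and 13.39 in DWT-I, 14.63 and 14.63 in DWT-II+III and 15.39 and 15.39 in DWT-IV. Mcm5 read 14.03 and 13.85 in DWT-I, 14.28 and 14.33 in DWT-II+III and 14.91 and 14.99 in DWT-IV. Both genes step up with stage in both mice, yet the SEs of 0.72 and 0.68, which pool the spread over all 6 isolated groups, are large beside their differences of 1.71 and 1.01. In helicase activation, Mcm10 read 10.89 and 10.47 in DWT-I, 11.10 and 10.82 in DWT-II+III and 12.08 and 12.21 in DWT-IV, and rose by 1.46 ± 0.46 (adjusted p = 0.049). Cdc45 read 10.17 and 9.77 in DWT-I, 10.01 and 9.47 in DWT-II+III and 10.89 and 10.51 in DWT-IV. In each mouse its stage II+III value lies below its stage I value, and the difference between stages IV and I, 0.73 ± 0.57, was not called. Gins2 (0.34) was among the 3 lowest differences of the set.

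Pola1 read 13.51 and 13.00 in DWT-I, 14.14 and 13.65 in DWT-II+III and 14.96 and 14.82 in DWT-IV. It rose by 1.64 ± 0.36 (adjusted p = 0.01). Pold2 read 10.46 and 10.35 in DWT-I, 10.53 and 10.68 in DWT-II+III and 10.52 and 11.02 in DWT-IV, with little distance between stages and a difference of 0.37 ± 0.53. Pold1 read 12.23 and 12.09 in DWT-I, 11.77 and 11.96 in DWT-II+III and 11.64 and 12.43 in DWT-IV, and was the only gene below 0, at -0.12 ± 1.17. So the gene with the strongest fall in culture had overlapping stage I and stage IV arrays in DWT.

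Pcna read 16.33 and 16.07 in DWT-I, 16.71 and 16.27 in DWT-II+III and 16.84 and 16.90 in DWT-IV. Rfc1 read 11.90 and 12.22 in DWT-I, 12.53 and 12.10 in DWT-II+III and 13.01 and 13.27 in DWT-IV. Neither was called, at 0.67 ± 0.53 and 1.08 ± 0.44, and the clamp role had the lowest median, 0.57. Rpa1 read 12.64 and 12.54 in DWT-I, 13.17 and 13.13 in DWT-II+III and 14.04 and 13.92 in DWT-IV. Lig1 read 10.37 and 10.35 in DWT-I, 11.09 and 10.90 in DWT-II+III and 11.82 and 11.96 in DWT-IV. Both lie highest at stage IV, and Lig1 rose by 1.53 ± 0.37 (adjusted p = 0.016), while Rpa1 at 1.39 ± 0.63 was not called.

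Rrm1 read 13.71 and 13.16 in DWT-I, 14.15 and 13.68 in DWT-II+III and 14.96 and 15.06 in DWT-IV. Rrm2 read 12.36 and 11.90 in DWT-I, 13.55 and 12.42 in DWT-II+III and 15.07 and 15.07 in DWT-IV. The Rrm2 arrays of stages I and IV are well apart, and the difference of 2.94 ± 1.16 was the third highest but was not called (adjusted p = 0.11). Tyms read 13.62 and 13.18 in DWT-I, 14.21 and 13.33 in DWT-II+III and 14.99 and 15.11 in DWT-IV, and rose by 1.65 ± 0.46 (adjusted p = 0.031). Dut read 7.69 and 7.02 in DWT-I, 7.35 and 6.48 in DWT-II+III and 7.77 and 7.80 in DWT-IV, close to background throughout.

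**Figure D3:**
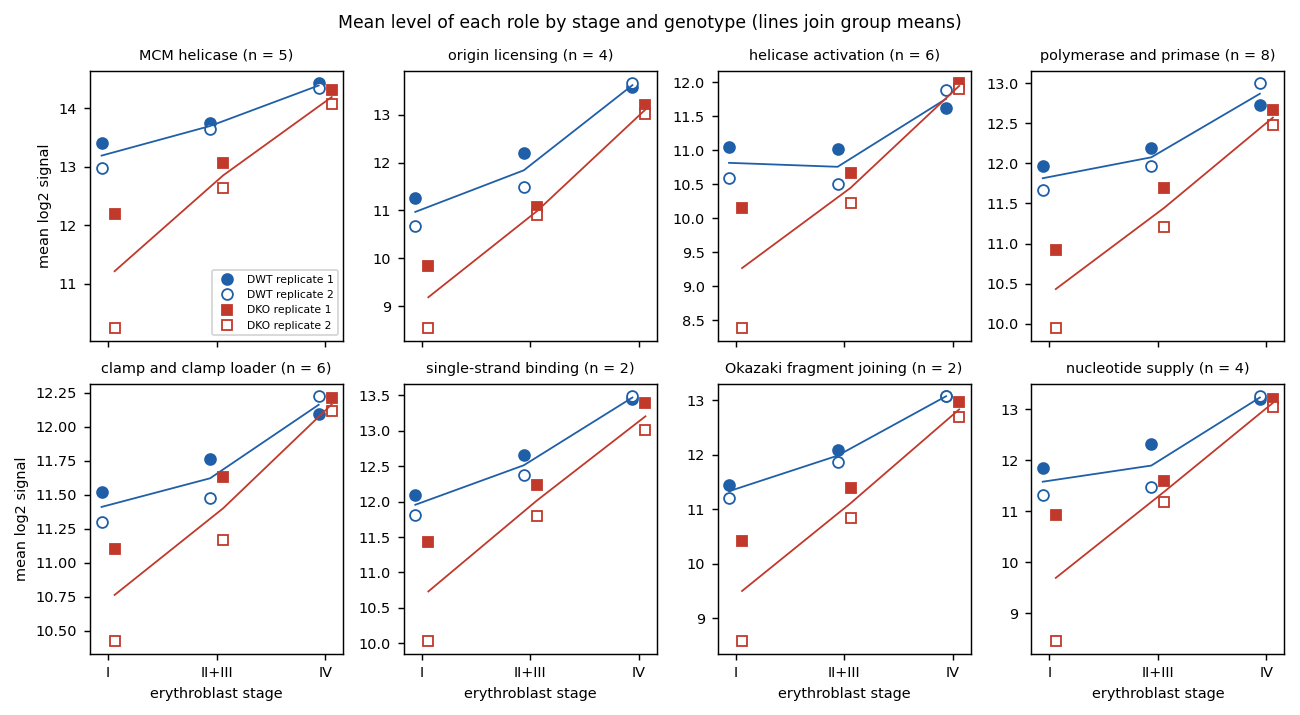
Mean log2 signal of the genes of each role (1 panel per role, n genes in its title) at stages I, II+III and IV, for the 2 DWT arrays (blue circles) and the 2 DKO arrays (red squares) of each stage; filled symbols are replicate 1, open ones replicate 2, and lines join group means. Stage IV is the highest stage in every panel, and the open DKO square at stage I lies lowest.

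In DKO cells the rise from stage I to stage IV was called in 28 of 37 genes and a fall in none, where 7.72% of all probe sets were called higher. The median was 2.66, against -0.07 over all probe sets. Because DKO-I replicate 2 stood apart, the comparison was repeated without it, and the median was then 1.83. Without DKO-I replicate 1 the median was 3.55. Of the 28, 16 passed under every alternative tried. The differences in DWT and DKO had a Pearson r of 0.62 and a Spearman rho of 0.56 across the 37 genes, as a description over separate arrays normalized by one method.

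Orc1 read 8.21 and 6.95 in DKO-I, 9.55 and 10.30 in DKO-II+III and 12.51 and 12.17 in DKO-IV. Rrm2 read 11.26 and 6.33 in DKO-I, 11.66 and 12.13 in DKO-II+III and 14.90 and 14.79 in DKO-IV. Mcm2 read 12.36 and 9.42 in DKO-I, 13.79 and 13.56 in DKO-II+III and 15.50 and 15.18 in DKO-IV. In each of these genes the stage I arrays are far apart from each other and both lie below every stage IV array. Rrm2 rose by 6.05 ± 1.16 (adjusted p = 0.0057), Orc1 by 4.76 ± 0.55 (adjusted p = 3.7e-04) and Mcm2 by 4.45 ± 0.72 (adjusted p = 0.0023). Without DKO-I replicate 2 the differences were 3.58, 4.13 and 2.98, with Orc1 then above Rrm2. In that array Rrm2 and Orc1 were near background. With its value set to the background level, the differences of Rrm2 and Orc1 were 5.34 and 4.36. Cdc6 read 9.52 and 8.63 in DKO-I, 11.09 and 11.44 in DKO-II+III and 13.47 and 13.31 in DKO-IV. Cdt1 read 10.22 and 7.40 in DKO-I, 11.28 and 9.44 in DKO-II+III and 12.74 and 12.24 in DKO-IV. Cdt1 was low in DKO-II+III replicate 2 as well. Cdc6 rose by 4.32 ± 0.51 and Cdt1 by 3.68 ± 0.86. Cdt1 was near background in DKO-I replicate 2, and without that array its difference was 2.28.

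Mcm5 read 13.37 and 10.64 in DKO-I, 13.78 and 13.23 in DKO-II+III and 15.04 and 14.78 in DKO-IV. Orc6 read 11.38 and 11.16 in DKO-I, 12.38 and 12.40 in DKO-II+III and 14.14 and 14.32 in DKO-IV. Mcm10 read 9.37 and 8.15 in DKO-I, 10.63 and 10.34 in DKO-II+III and 12.12 and 12.05 in DKO-IV. Mcm5 shows a wide gap between the stage I arrays and Orc6 a narrow one. Mcm5 rose by 2.91 ± 0.68, Orc6 by 2.96 ± 0.38 and Mcm10 by 3.32 ± 0.46. Cdc45 read 8.42 and 6.52 in DKO-I, 8.94 and 8.93 in DKO-II+III and 11.40 and 10.89 in DKO-IV, and rose by 3.68 ± 0.57. It was near background in DKO-I replicate 2, and without that array the difference was 2.73. Pola1 read 12.22 and 12.59 in DKO-I, 13.29 and 13.03 in DKO-II+III and 14.55 and 14.34 in DKO-IV, and rose by 2.04 ± 0.36. Unlike most members, Pola1 was higher in the second stage I array than in the first.

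Pold2 read 9.64 and 11.02 in DKO-I, 10.11 and 9.24 in DKO-II+III and 10.61 and 9.90 in DKO-IV. Rfc1 read 12.17 and 13.16 in DKO-I, 12.20 and 11.84 in DKO-II+III and 13.03 and 12.46 in DKO-IV. Both were also higher in DKO-I replicate 2 than in replicate 1, and with Rfc3 they held the 3 lowest differences, at -0.07, 0.08 and 0.39. Without DKO-I replicate 2 these became 0.62, 0.57 and 1.59. Pold1 read 10.29 and 5.28 in DKO-I, 11.55 and 10.89 in DKO-II+III and 11.64 and 11.27 in DKO-IV, and its 3.67 ± 1.17 was not called (adjusted p = 0.061). Its value in DKO-I replicate 2 is below background, and at the background level the difference would be 2.44.

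Pcna read 15.40 and 13.27 in DKO-I, 16.15 and 15.82 in DKO-II+III and 17.05 and 17.03 in DKO-IV, and rose by 2.71 ± 0.53. Rpa1 read 12.26 and 9.93 in DKO-I, 12.84 and 12.05 in DKO-II+III and 13.95 and 13.65 in DKO-IV, and rose by 2.71 ± 0.63. Lig1 read 9.32 and 8.90 in DKO-I, 10.26 and 10.03 in DKO-II+III and 11.41 and 11.55 in DKO-IV, and rose by 2.37 ± 0.37. For all 3 the stage IV arrays lie close together and the highest of the stages. Rrm1 read 12.65 and 9.54 in DKO-I, 13.62 and 13.00 in DKO-II+III and 15.04 and 14.99 in DKO-IV, and rose by 3.92 ± 0.77. Tyms read 12.80 and 11.63 in DKO-I, 13.34 and 12.88 in DKO-II+III and 15.07 and 15.03 in DKO-IV, and rose by 2.84 ± 0.46. Dut read 7.04 and 6.32 in DKO-I, 7.73 and 6.73 in DKO-II+III and 7.77 and 7.40 in DKO-IV, and stayed close to background, with no call.

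Split by stage step, DKO-I to DKO-II+III gave a median of 1.34, against -0.11 over all probe sets. No member was called, where 0.327% of all probe sets were. An unadjusted p under 0.05 was found for 18 genes and for 2038 of all 19572 probe sets. The median there was 2.08 without DKO-I replicate 1 and 0.52 without DKO-I replicate 2. The highest differences were Pold1 (3.44), Rrm2 (3.10) and Mcm2 (2.78), which without replicate 2 were 0.94, 0.64 and 1.31, and the lowest Pold2 (-0.65), Rfc1 (-0.64) and Rfc3 (-0.37). From DKO-II+III to DKO-IV all 37 genes lay above 0, with a median of 1.36. Over all probe sets 54.6% lay above 0, with a median of 0.06. Of the members 6 were called higher, where 4.11% of all probe sets were. They were Orc6 (1.84 ± 0.38, adjusted p = 0.018), Orc1 (2.42 ± 0.55, adjusted p = 0.025), Gins4 (1.57 ± 0.37, adjusted p = 0.029), Tyms (1.94 ± 0.46, adjusted p = 0.031), Cdc6 (2.13 ± 0.51, adjusted p = 0.032) and Cdc45 (2.21 ± 0.57, adjusted p = 0.042). The mouse block pairs only DWT arrays, so for this step it changes the estimate of the spread and pairs no DKO arrays. With it Gins4 (limma adjusted p = 0.053) and Cdc45 (0.059) did not pass. The calls of this step did not hold without any 1 of the 4 arrays. Rrm2 (2.95) was the highest and not called, and Rfc5 (0.06), Pold1 (0.23) and Dut (0.35) were the lowest.

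The genotype comparison asked whether the genes differ between DKO and DWT at the same stage. It shares its arrays with the stage comparisons above. No member was called at any stage. At stage I the median difference was -1.55, against 0.15 over all probe sets. In all, 34 genes lay below 0, as did 39.1% of all probe sets. An unadjusted p under 0.05 was found for 27 genes and for 3028 of all 19572 probe sets. By adjusted p, 0.445% of all probe sets were called. The arrays of the 2 genotypes did not overlap for 28 genes that were lower in DKO, where 17.4% of all probe sets did so. Cdc45 had the lowest adjusted p (0.11, difference -2.50 ± 0.57). The lowest differences were Pold1 (-4.38 ± 1.17), Rrm2 (-3.33 ± 1.16) and Mcm2 (-2.78 ± 0.72), and the highest Rfc3 (0.61), Rfc1 (0.61) and Pole2 (0.21). Pold1, Rrm2 and Cdc45 were near background in DKO-I replicate 2, and at the background level their differences were -3.14, -2.63 and -1.89. Without DKO-I replicate 2, Pold1, Rrm2 and Mcm2 were at -1.87, -0.87 and -1.31, and without replicate 1 at -6.88, -5.80 and -4.26.

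Red cell RNA differed at the same stage. Of 13 red cell markers 11 were called lower in DKO-I than in DWT-I, with a median of -3.76. None of 11 neutrophil markers was called. The mean of 9 granulocyte progenitor markers was 12.99 and 9.68 in DKO-I, against 13.01 and 12.63 in DWT-I. The mean of 7 stem and progenitor markers was 8.82 and 7.04 in DKO-I, against 10.03 and 10.19 in DWT-I. No marker of these lists was called. The mean of 9 ribosomal protein genes was 14.62 in DKO-I replicate 2 and 15.59 in replicate 1, against 15.51 and 15.74 in DWT-I. Rps14, a ribosomal gene chosen after its values were seen, read 12.32 in DKO-I replicate 2 and 16.02 to 17.28 in the other 19 arrays. The part of these shifts in the replication genes' difference was not tested.

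The 2 DKO-I arrays gave different sizes. Against the DWT-I mean, replicate 1 had a median of -0.781 over the 37 genes, with 31 below both DWT-I arrays and none above both. Replicate 2 had a median of -2.53, with 33 below and 4 above, namely Pole2, Pold2, Rfc1 and Rfc3. Over all probe sets, replicate 1 was below both DWT-I arrays in 33.8% and replicate 2 in 33.3%. They were above both in 38.7% and 56.5%. With DKO-I replicate 1 left out the median genotype difference was -2.53, and with replicate 2 left out it was -0.78. Such a fit assumes that the lone array varies like the other groups, so calls gained without 1 array are not given. Calls lost in this way are given as a limit.

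**Figure D4:**
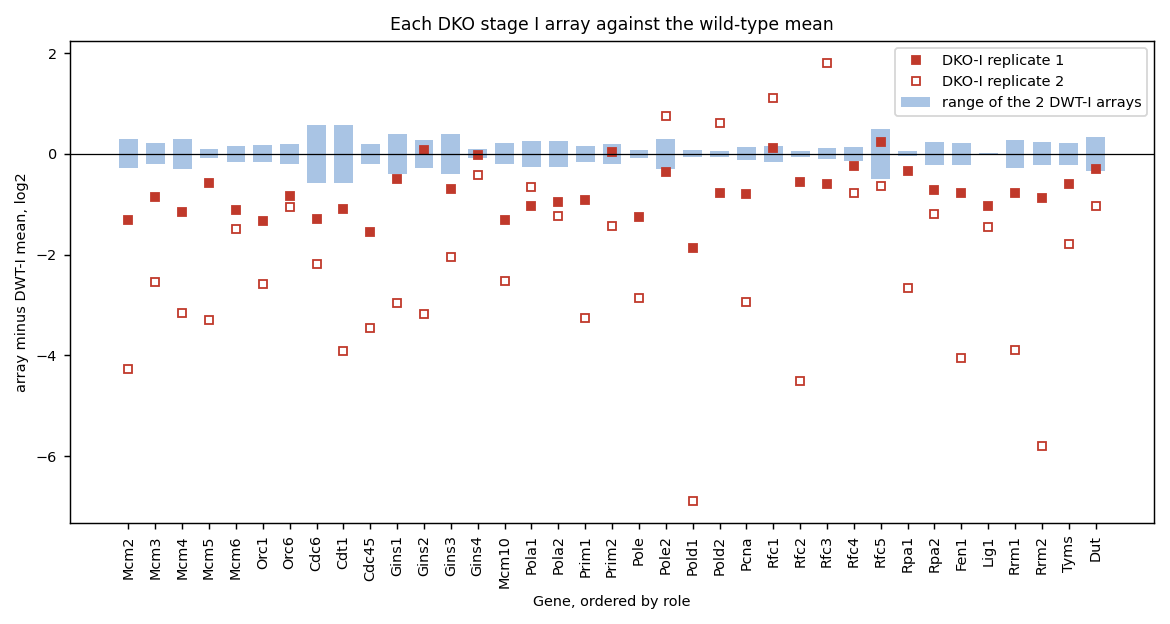
Each DKO-I array minus the DWT-I mean (log2) for the 37 genes, ordered by role; filled squares are replicate 1, open squares replicate 2, and blue bars span the 2 DWT-I arrays around their mean. Most filled squares lie just below the bars, with a median of -0.781, and most open squares lie far below, with a median of -2.53.

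At stage II+III the genotype difference had a median of -0.64, against 0.01 over all probe sets. In all, 32 genes lay below 0, as did 48.8% of all probe sets. An unadjusted p under 0.05 was found for 1 gene and for 1816 probe sets, with 0.618% of all probe sets called. Cdt1 (-1.63), Prim1 (-1.15) and Rrm2 (-1.09) were the lowest and Dut (0.31, near background), Rfc3 (0.28) and Gins1 (0.23) the highest. Without DWT-II+III replicate 1 the median was -0.37, and without DKO-II+III replicate 2 it was -0.35. The red cell mean was 12.04 and 13.16 in DKO-II+III against 15.06 and 14.24 in DWT-II+III, with 3 of 13 markers called lower, and 1 of 11 neutrophil markers was called higher. The part of this shift was not tested. At stage IV the median was -0.16 (-0.32 and -0.06 without DKO-IV replicate 1 and 2). No member had an unadjusted p under 0.05, against 1588 probe sets, and 0.0460% of all probe sets were called. Orc1 (-1.05), Cdc6 (-0.68) and Pold1 (-0.58) were the lowest and Rfc3 (0.59), Gins1 (0.50) and Cdc45 (0.45) the highest. The medians shrink with stage, but the tests of change found no called probe set of any kind. From stage I to II+III the change of the genotype difference had an unadjusted p under 0.05 in 942 probe sets, 2 of them members, and from II+III to IV in 662, none a member. The extremes of the first were Pold1 (3.73), Rrm2 (2.25) and Gins1 (1.96) against Rfc1 (-0.90), Pold2 (-0.85) and Pole2 (-0.40). Those of the second were Cdc45 (1.26), Cdt1 (1.15) and Prim1 (1.12) against Dut (-0.51), Orc1 (-0.45) and Rfc1 (-0.10). Leaving out 1 array at a time, the members' median of the first change ranged from 0.18 to 1.72.

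The related lists were read over the same span. From DWT-I to DWT-IV, 8 of 34 other replication factors were called higher and 1 lower, and 7 of 20 G2 and mitosis genes higher. Donson, a replication fork factor, rose by 3.14 ± 0.48 (adjusted p = 0.0018), and Cenpf, a kinetochore protein, by 2.57 ± 0.52 (adjusted p = 0.0073). Of 21 E2F and S phase regulators 9 were called higher and 1 lower. E2f4, an E2F factor best known as a repressor, rose by 2.22 ± 0.34 (adjusted p = 0.0017). Of 23 other nucleotide supply genes 3 were called higher and 6 lower, where 10.5% of all probe sets were called lower. Dck (2.41), Mthfd2 (2.13) and Tk1 (1.50) rose, and Samhd1 fell by 3.08 ± 0.51 (adjusted p = 0.0027).

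From DKO-I to DKO-IV, 20 of 34 other replication factors, 20 of 20 G2 and mitosis genes, 11 of 21 regulators and 4 of 23 other nucleotide genes were called higher, and 2 of the last were called lower, where 7.55% of all probe sets were. Clspn, an adaptor of the replication checkpoint, was near background in both DKO-I arrays and rose by at least 2.89 (adjusted p = 4.1e-04). Nusap1, a spindle protein, rose by 2.63 ± 0.36 (adjusted p = 9.6e-04), E2f4 by 3.26 ± 0.34 (adjusted p = 1.9e-04) and Mthfd2, a mitochondrial folate enzyme, by 4.52 ± 0.63 (adjusted p = 0.001). In the step from DWT-II+III to DWT-IV, Clspn (2.07), Dck (1.93) and Bub1 (2.33) rose and Cdk6, a G1 kinase, fell by 3.85 ± 0.56 (adjusted p = 0.011), where 3.57% of all probe sets were called lower. In the step from DKO-II+III to DKO-IV, Clspn (2.78), Dck (2.42), E2f4 (2.05) and Cenpf rose. Cenpf was near background in both DKO-II+III arrays, so its difference is 2.62 or higher.

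Markers of other cells moved with stage and genotype. The neutrophil mean was 16.16 and 16.37 in DWT-I, 11.30 and 12.99 in DWT-II+III and 7.70 and 10.06 in DWT-IV, where 5 and 10 of the 11 markers stayed above background. In DKO it was 16.95 and 15.38, then 15.41 and 15.38, then 12.49 and 11.99, so that the DKO arrays lay above the DWT arrays at stages II+III and IV. From stage I to IV, 11 of the 13 red cell markers were called higher in DWT and 13 in DKO. The mean of the 20 G2 and mitosis genes was 12.46 and 12.66 in DWT-I, 14.27 and 14.41 in DWT-IV, 9.20 and 11.70 in DKO-I and 13.90 and 13.96 in DKO-IV. From DWT-I to DWT-IV, 6 of 9 granulocyte progenitor markers, 7 of 11 monocyte and macrophage markers and 1 of 4 megakaryocyte markers were called lower, and none of 11 T, NK and B cell markers, 7 stem and progenitor markers or 9 ribosomal protein genes was called. The part of these cells' RNA in the replication genes' differences between stages and genotypes was not tested.

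**Figure D5:**
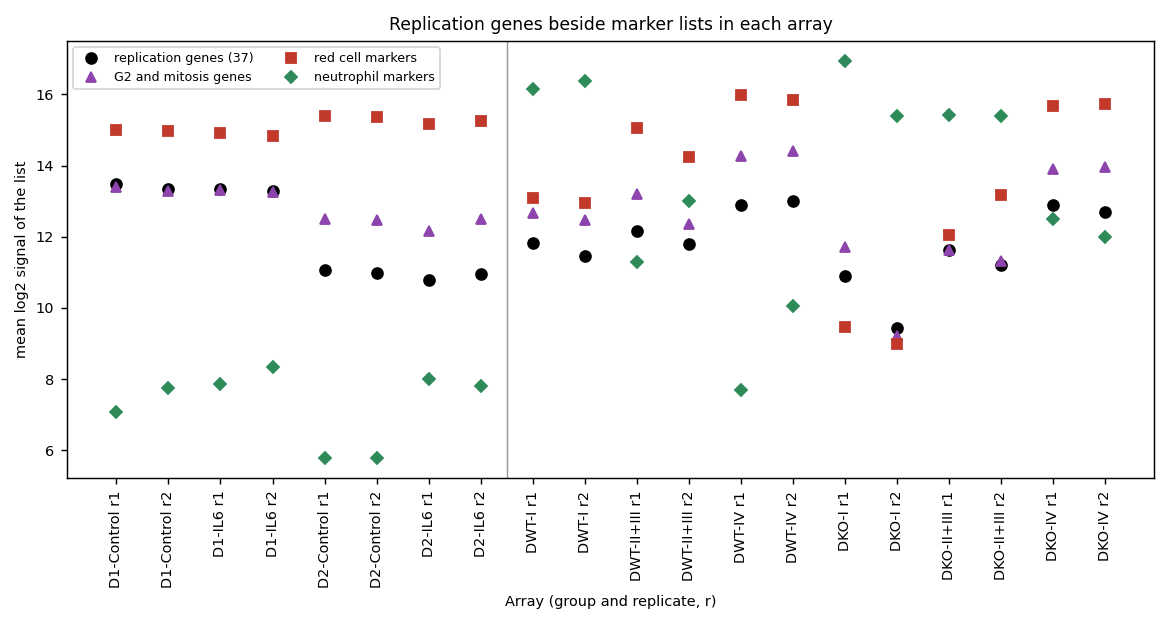
Mean log2 signal per array of the 37 replication genes (black circles), 20 G2 and mitosis genes (purple triangles), 13 red cell markers (red squares) and 11 neutrophil markers (green diamonds). In the 12 isolated arrays, right of the grey line, the black circles lie highest in the 4 stage IV arrays, where the green diamonds are lowest within each genotype.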

How the data were processed

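Total RNA of 20 samples (without technical replicates) was hybridised to Clariom S arrays. The authors deposited signals on the log2 scale, computed by RMA in Affymetrix Expression Console, per the submitters' processing notes; versions, and whether all arrays were normalized together, are not given in the sources used here. Values ran from 2.88 to 19.28. Of 28846 probe sets, 19572 carried 1 symbol and were tested.

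The 8 cultured and 12 isolated arrays were fitted separately with limma 3.58.1 in R 4.3.3 (lmFit, eBayes with an intensity trend), with Benjamini-Hochberg adjustment over all 19572 probe sets and a threshold of 0.05. The scripts were tested on simulated data. The number of arrays limits the precision.

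Members and lists were chosen with earlier results of these data known. Values in every array are given for a fixed choice of genes by role, and for Orc1 and Pold1, chosen after their values were seen. For each comparison the 3 highest and 3 lowest members are named, with every called member where at most 10 were called, and from the other lists the gene with the lowest adjusted p. Other list genes named were chosen after their values were seen. The comparisons of stage IV with stage I were added after seeing the data.

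DWT arrays with the same number were taken to come from the same mouse because they share its sex. The male minus female differences correlated between stages at 0.099, 0.021 and 0.124 over all probe sets. Alternatives were quantile normalization, median centring, no trend, all 20 arrays in 1 fit, the mouse as a block, a filter that kept 9752 probe sets above background in at least 2 arrays, and leaving out each array. Where a gene was near background in 1 array of a group, its value there was also set to the background level. Where it was so in both arrays a bound is given, except for Dut in the isolated cells. Its differences there are given as measured, from values close to background.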

Additional observations from a re-analysis of the deposited data

How the results depend on the processing

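All 167 alternative values of the members' median differences kept their sign, but the sizes did not all hold. Leaving out 1 array gave medians of -2.53 to -0.78 for DKO-I against DWT-I, 0.52 to 2.08 for DKO-II+III against DKO-I, 0.18 to 1.72 for the change of the genotype difference from I to II+III and 0.15 to 0.62 for that from II+III to IV. For IL-6 they were -0.14 to -0.03 at D1, -0.26 to -0.09 at D2 and -0.14 to -0.01 for the change. The medians from D1 to D2 stayed at -2.55 to -2.37 without IL-6 and -2.67 to -2.40 with it, and quantile normalization gave -2.23 without IL-6. Members called higher from DWT-II+III to DWT-IV numbered 2 with quantile normalization, 4 without the intensity trend, 8 with all 20 arrays in 1 fit and 3 with the low signal filter. Over all probe sets 462, 445, 966 and 422 were called higher in these settings in turn, against 311 in the main fit. In the fit of all 20 arrays, 12 members were called lower in DKO-I than in DWT-I, among 344 probe sets. There 5 were called higher in DKO-II+III than in DKO-I, among 175. From DKO-II+III to DKO-IV 17 were called higher, among 1370 probe sets against 804 in the main fit. In that fit of 20 arrays Rpa1, Rrm1 and Rrm2 lost their call in culture without IL-6. With IL-6, Fen1 and Pold2 lost it as well as these. With the low signal filter, 10 members were called higher from DKO-II+III to DKO-IV, among 988 probe sets. Pola1 was called lower with IL-6 at D2, among 67. Quantile normalization gave 0.03 for Pold2 from D1 to D2 without IL-6, 0.20 for Rfc5 from DWT-II+III to DWT-IV, 0.04 for Pold1 from DWT-I to DWT-IV and -0.09 for Rfc1 from DKO-I to DKO-IV, and median centring 0.01 for Pold2 from DKO-I to DKO-IV. The cause was not tested.

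The replicate block pairs the DWT arrays of a mouse. With it the calls were 4 from DKO-II+III to DKO-IV, among 614 probe sets, and 8 from DWT-I to DWT-IV, among 1335. There was 1 from DWT-II+III to DWT-IV, among 202, and 28 from DKO-I to DKO-IV, among 1285. It changed no other call. The median over all probe sets from D1 to D2 without IL-6 was 0.17, and 0.03 with quantile normalization and 0.04 with centring. The share of calls that were higher there was 45.6%, and 36.4% with centring. From DWT-II+III to DWT-IV it was 30.8%, and 44.9% with quantile normalization.

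Leaving out 1 array at a time gave these ranges of members called. DKO-I against DWT-I had 0 to 27 lower and 0 to 1 higher. DKO-II+III against DKO-I had 0 to 27 higher and 0 to 1 lower, and the change of the genotype difference from I to II+III 0 to 15 higher. DKO-IV against DKO-II+III had 0 to 0 higher, DWT-IV against DWT-I 2 to 4, DWT-IV against DWT-II+III 0 to 1 and DKO-IV against DKO-I 19 to 31. D2-IL6 against D2-Control had 0 to 1 lower and D2-IL6 against D1-IL6 36 to 37.

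Changes of sign when 1 array was left out were looked for only among the highest, the lowest and the called members of each comparison. Other members also changed sign. For DKO-I against DWT-I, Gins2 went from -1.55 to 0.08 without DKO-I replicate 2. Prim2 and Rfc5 were then at 0.04 and 0.24. Among the members looked at, these changed sign. Dut ranged from -0.17 to 0.34 for IL-6 at D1, from -0.19 to 0.81 for DKO against DWT at II+III, from -0.14 to 0.85 from DKO-II+III to DKO-IV and from -0.87 to 0.00 from DWT-I to DWT-II+III. Gins1 ranged from -0.14 to 0.61 for DKO against DWT at II+III and from -0.72 to 0.05 from DWT-I to DWT-II+III. Pold1 ranged from -0.10 to 0.56 from DKO-II+III to DKO-IV, from -0.52 to 0.27 from DWT-I to DWT-IV and from -0.22 to 0.56 from DWT-II+III to DWT-IV. Pold2 ranged from -1.35 to 0.04 from DKO-I to DKO-II+III, from -0.77 to 0.62 from DKO-I to DKO-IV and from -0.08 to 0.42 from DWT-II+III to DWT-IV. Rfc3 ranged from -0.59 to 1.81 for DKO against DWT at I, from -1.57 to 0.83 from DKO-I to DKO-II+III and from -0.81 to 1.59 from DKO-I to DKO-IV. Rfc5 ranged from -0.22 to 0.34 from DKO-II+III to DKO-IV and from -0.20 to 0.04 from DWT-II+III to DWT-IV. Rfc1 ranged from -0.42 to 0.57 from DKO-I to DKO-IV, and Pole2 from -0.35 to 0.76 for DKO against DWT at I. For the change of the genotype difference from I to II+III, Pole2 ranged from -0.96 to 0.15 and Rrm2 from -0.22 to 4.71, and from II+III to IV Orc1 from -1.02 to 0.12 and Rfc1 from -0.38 to 0.18.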
